A study of Homo sapiens with 14 samples.

Results

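FKBP5 and FKBP4 are the genes of the immunophilins FKBP51 and FKBP52, which bind steroid receptors together with Hsp90. Their surroundings were read here as the gene span in GRCh38 RefSeq with 50 kb on each side, and every listed binding region that overlapped it by at least 1 bp was taken, whatever its strength. This gave 156 regions at 2 genes, of 230789 regions in all 4 lists. FKBP5 (gene ID 2289) lies on the minus strand at chr6:35573590-35728583, 154994 bp, and FKBP4 (gene ID 2288) at chr12:2794970-2805423, 10454 bp. The sources used here give no strand for FKBP4, so its ends are called the lower and the upper end by coordinate.

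The regions came from chromatin immunoprecipitation sequencing (ChIP-seq), which maps where a protein sits on DNA, in T47D, a human breast cancer cell line with oestrogen and progesterone receptors. All cells were grown in medium with fetal bovine serum and insulin and were then exposed for 1 h to ethanol as vehicle or to progesterone (P4). The dose of P4 is not given in the sources used here. Chromatin was precipitated with an antibody against the progesterone receptor (PR) or against POLR3A, which is RNA polymerase III's largest subunit, in 3 replicates per antibody and treatment. Each treatment had 1 input library, titled as pooled. The 3 replicates of a group share 1 list, so no value could be set against the spread between replicates and no test was made. On chromosomes 1 to 22 and X the lists held 38933 (PR, vehicle), 111515 (PR, P4), 29161 (POLR3A, vehicle) and 47904 (POLR3A, P4) regions. Their depth is unknown, since the lists hold no read counts.

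Steroid receptors are held ready for hormone by Hsp90 and its co-chaperones, and FKBP51 and FKBP52 compete for the same place on Hsp90 through their tetratricopeptide repeats. FKBP52 favours hormone binding and transport of the receptor to the nucleus, whereas FKBP51 lowers the receptor's affinity for hormone. FKBP5 is itself a widely used target gene of progestins, glucocorticoids and androgens, so that the receptor and its co-chaperone form a feedback loop. RNA polymerase III makes tRNAs and other short RNAs, and protein-coding genes such as FKBP5 and FKBP4 are transcribed by RNA polymerase II.

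Of the member genes, FKBP5 matched the RefSeq promoter table (GRCh38.p14), with 2 starts, and FKBP4 did not match. The upstream start at 35728583 is the upper end of the gene span. The downstream start at 35688915 lies inside that span. Each window runs from 250 bases before the start to 50 after it and is printed 5′ to 3′ on the minus strand, chr6:35728534-35728833 for the upstream start and chr6:35688866-35689165 for the downstream start. They are shown because the list of PR regions under P4 reached into both. Capitals mark matches to the motifs described next.

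FKBP5 upstream start: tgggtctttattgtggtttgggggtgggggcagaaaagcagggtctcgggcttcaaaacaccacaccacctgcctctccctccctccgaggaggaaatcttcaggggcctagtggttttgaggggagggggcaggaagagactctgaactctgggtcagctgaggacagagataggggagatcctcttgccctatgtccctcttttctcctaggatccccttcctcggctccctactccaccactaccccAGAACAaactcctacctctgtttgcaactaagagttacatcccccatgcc

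FKBP5 downstream start: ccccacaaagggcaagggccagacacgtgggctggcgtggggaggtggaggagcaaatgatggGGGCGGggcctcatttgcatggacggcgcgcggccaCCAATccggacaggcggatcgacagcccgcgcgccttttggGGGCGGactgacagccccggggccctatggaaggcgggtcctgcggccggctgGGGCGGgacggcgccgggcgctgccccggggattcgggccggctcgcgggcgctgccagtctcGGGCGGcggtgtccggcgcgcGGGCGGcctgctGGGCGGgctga

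The motifs searched on both strands were the palindromic steroid response element GNACANNNTGTNC, its half-site TGTTCT, the forkhead motif TGTTTAC, the AP-1 motif TGANTCA, the GC box GGGCGG, the CCAAT box and the TATA box TATAAA. A half-site can overlap an arm of the palindrome. The capitals in the upstream window are a half-site on the other strand (AGAACA), whose first base is the annotated start itself. The downstream window holds 6 GC boxes and 1 CCAAT box. Neither window holds the palindrome, the forkhead motif, the AP-1 motif or the TATA box. Among 34789 RefSeq promoter windows of the same length, 0.391% held the palindrome, 14.8% the half-site, 3.42% the forkhead motif, 7.69% the AP-1 motif, 44.9% the GC box, 34.6% the CCAAT box and 11.6% the TATA box. The windows also differ in base composition. The upstream window is 55.7% G and C with 3 CpG dinucleotides, fewer CpG than most promoters (18.2% had fewer). The downstream window is 76% G and C with 38 CpG, and 90.1% of promoters had fewer.

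Under P4 the PR list covered 159 bases of the upstream window, the last 159 printed, as the edge of the strongest PR region of the locus. It covered the first 109 bases of the downstream window with a separate, weak region (−log10 q 5.25, where q is the false discovery rate the authors' peak caller gave a region). The PR vehicle list and both POLR3A lists covered no base of either window. Over 22132 starts of protein-coding genes, the windows overlapped by a region made up 7.48% for PR under vehicle, 23.1% for PR under P4, 17.0% for POLR3A under vehicle and 15.7% for POLR3A under P4. Under P4 the upstream window thus held the border of the strongest PR region, whose summit lay 1596 bp inside the gene.

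FKBP5 had 25 PR regions in the vehicle list and 50 in the P4 list, and 11 and 27 POLR3A regions. At FKBP4 there were 7 and 20 PR regions, and 8 POLR3A regions under each treatment. Both genes thus had regions in every list, as did 74.6% (PR, vehicle), 90.5% (PR, P4), 68.7% (POLR3A, vehicle) and 71.9% (POLR3A, P4) of the 19821 protein-coding genes. The larger PR counts under P4 went with a longer list. When the PR lists were cut to equal length by −log10 q, FKBP5 had 25 regions under vehicle and 22 under P4. FKBP4 had 7 and 5, so the direction of the counts turned at both genes. At FKBP5, 21 of the 25 and 17 of the 22 were shared between treatments. A wide P4 region can overlap more than 1 vehicle region, so these counts are not numbers of separate sites. With the POLR3A lists cut likewise, FKBP5 kept its direction, with 11 POLR3A regions under vehicle and 19 under P4. When a −log10 q of at least 5 was asked for, POLR3A at FKBP5 turned, to 6 regions under vehicle and 1 under P4. At that threshold the PR counts stayed larger under P4, with 18 and 28 at FKBP5 and 4 and 8 at FKBP4.

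Per 100 kb, FKBP5 had 9.80 PR regions under vehicle, more than 95.7% of protein-coding genes, and 19.6 under P4, more than 89.9%. Its POLR3A regions came to 4.31 and 10.6 per 100 kb, more than 80.8% and 88.6% of genes. FKBP4 had 6.34 and 18.1 PR regions per 100 kb, more than 88.7% and 87.9% of genes, and 7.24 POLR3A regions under each treatment, more than 90.1% and 81.8%. The medians over all protein-coding genes were 1.51, 5.28, 0.971 and 1.72 per 100 kb in the same order of lists. Both genes stood above at least 80.8% of protein-coding genes in every list. FKBP5 stood highest for PR under vehicle and FKBP4 for POLR3A under vehicle, but this order depended on the setting. With 10 kb on each side, FKBP4 stood highest for PR under P4 (97.7%) and lowest for POLR3A under vehicle (90.9%). FKBP5 kept its order there. With lists cut to equal length, FKBP5 stood highest for PR under P4 (97.2%, against 95.7% under vehicle), and FKBP4 kept its order.

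**Figure D1:**
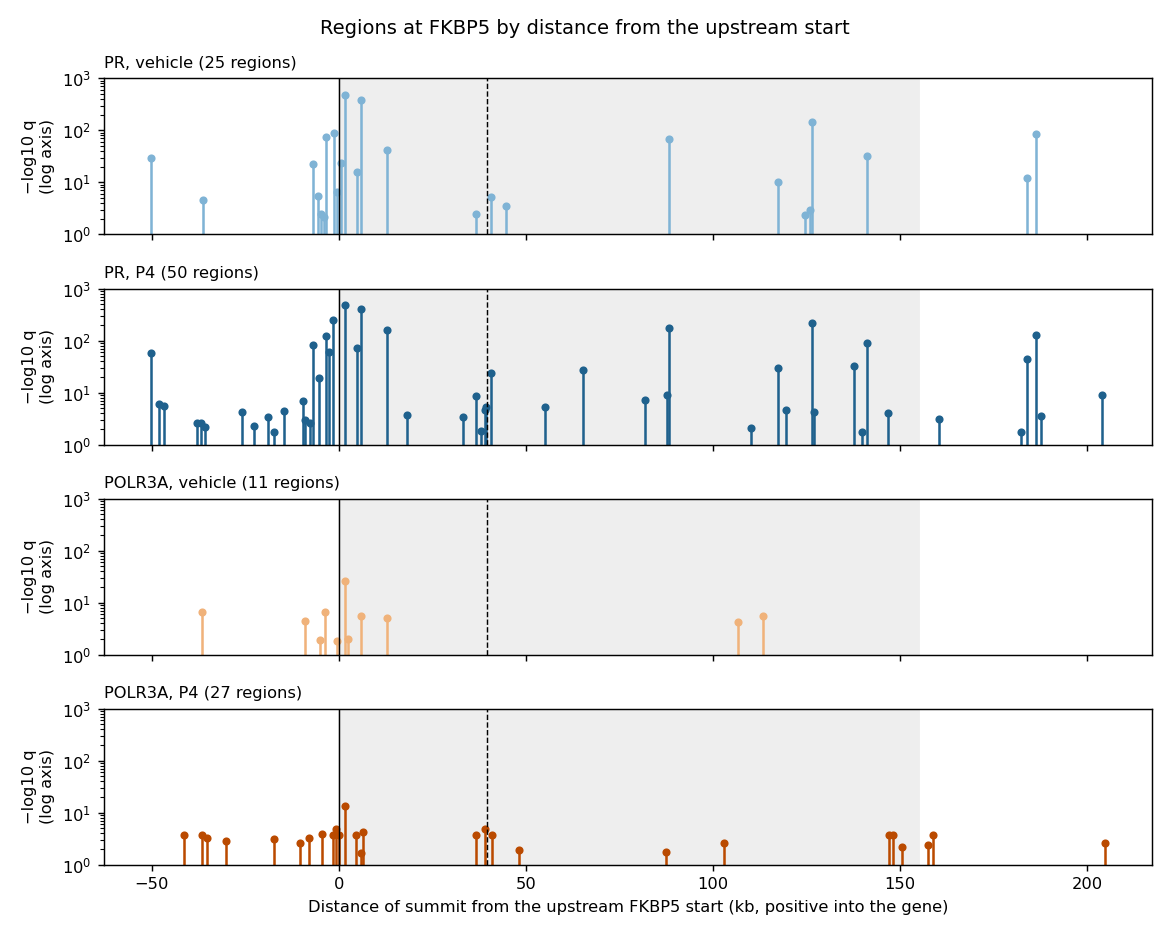
Regions at FKBP5 in the 4 lists. Each stem is a region at its summit, by distance from the upstream start (kb, positive into the gene), and its height is the authors' −log10 q on a log axis. The grey band is the gene, the solid line the upstream start and the dashed line the downstream start. The tallest stems of both PR panels, 489 and 493, stand just inside the upstream start.

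The strongest PR binding at FKBP5 lay just inside its upstream start and had the same place under both treatments. Under vehicle the region chr6:35725299-35727531 had a fold enrichment of 66.3 and a −log10 q of 489, rank 8 of 38933 regions by −log10 q, with its summit 1598 bp into the gene. Under P4 the region chr6:35725108-35728692 had a fold of 62.3 and a −log10 q of 493, rank 6 of 111515. Fold and −log10 q are the authors' own values for each region, and serve here to rank regions within a list and to set thresholds. Values of different lists are printed side by side as a description. They do not measure a change in binding, since the depth of the lists is unknown. The summits under vehicle and P4, at 35726985 and 35726987, nearly coincide. The region was 2233 bp wide under vehicle and 3585 bp under P4, when it reached across the start.

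The next PR site, deeper in the gene, was also in both lists. It was chr6:35722342-35723057 under vehicle (fold 57.2, −log10 q 390.4, rank 48) and chr6:35722311-35723014 under P4 (fold 47.01, −log10 q 399.6, rank 198). Upstream of the start, within the noncoding RNA gene LOC285847, chr6:35729767-35730150 had a −log10 q of 88.7 under vehicle. Under P4 the wider region chr6:35728901-35730745 had 253 there. Another site stood far inside the gene, chr6:35601707-35602297 under vehicle (−log10 q 146) and chr6:35601882-35602279 under P4 (214), with its P4 summit 126481 bp from the upstream start. These are 4 of the 6 strongest sites of each list, and they were in both.

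The other 2 of the 6 differed between the lists, although each had a region in both. Under vehicle they were chr6:35542003-35542399, past the lower end of the gene (−log10 q 84.3), and chr6:35731626-35732436, in LOC285847 and ARMC12, a neighbouring protein-coding gene (76.3). Under P4 these places had a −log10 q of 129 and 124. Under P4 the fifth and the sixth were chr6:35640032-35640567 (172) and chr6:35715440-35715859 (156), both inside FKBP5. Under vehicle these places had 69.3 and 42.1.

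PR regions at FKBP5 crowded around the upstream start. Within 10 kb of it, a distance chosen after the values had been seen, each PR list had 11 regions. They covered 7445 and 11805 bases, 37.2% and 59.0% of that stretch. No other start of the 22132 protein-coding ones had more PR bases within 10 kb in either list, although 2 and 143 starts had more PR regions by count. The count was the same under both treatments, and the covered length was larger under P4. The equal count does not stand for the same sites. For example, the P4 region chr6:35725108-35728692 overlapped 2 vehicle regions, and the P4 region chr6:35730982-35731370 overlapped no vehicle region. The POLR3A lists had 7 and 9 regions there, covering 3186 and 6111 bases, and 88 and 16 starts had more POLR3A bases covered. With 5 kb on each side in place of 10 kb, 0 starts had more PR bases in either list, and 178 and 10 had more POLR3A bases. Around the downstream start, 10 kb on each side, there were 3 and 6 PR regions and 0 and 4 POLR3A regions. The strongest of these had a −log10 q of 23.6 (PR, P4), far under the values at the upstream start.

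**Figure D2:**
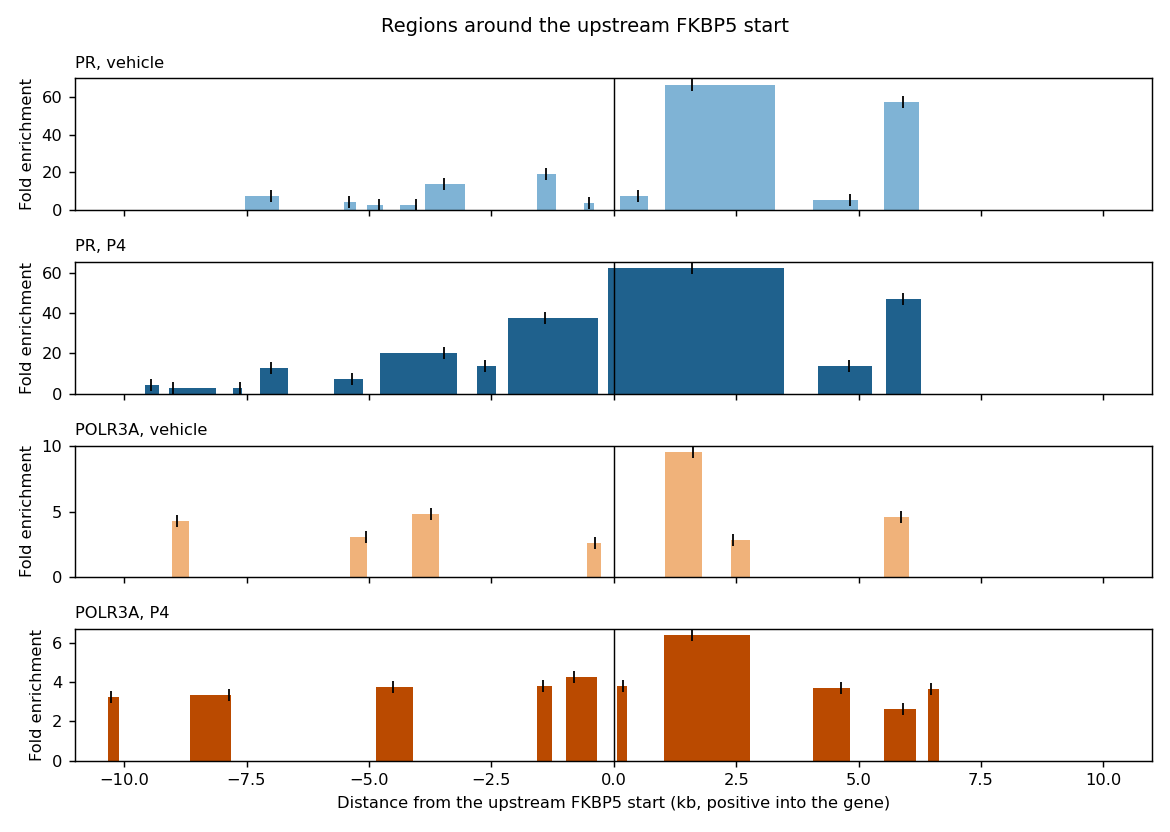
Fold enrichment (linear axis from 0, a different range in each panel) of the regions around the upstream FKBP5 start, by distance from the start in kb, positive into the gene. A bar spans a region and a tick marks its summit. The widest and highest bar of each panel lies just inside the start, and its summit has nearly the same place in all 4 lists.

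The POLR3A lists shared this site. Under vehicle the strongest POLR3A region at FKBP5 was chr6:35726782-35727538 (fold 9.57, −log10 q 25.7, rank 827 of 29161). Under P4 it was chr6:35725810-35727565 (fold 6.38, −log10 q 13.5, rank 1719 of 47904). Their summits, 35726962 and 35726983, lay within the PR region of either treatment. The next POLR3A regions were weaker, chr6:35732148-35732700 (−log10 q 6.60) and chr6:35764765-35765339 (6.49) under vehicle. Under P4 they were chr6:35689265-35689757, near the downstream start, and chr6:35728929-35729552, just before the upstream start, both at 4.95. Within each POLR3A list, the strongest FKBP5 region stood in the top 2.84% (vehicle) and 3.59% (P4) by −log10 q. Of the 27 POLR3A regions under P4, 5 had the same −log10 q of 3.72 with a fold of 3.81 and 3 shared 3.74 with a fold of 3.70. No tRNA gene, the usual template of RNA polymerase III, lies in either window.

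Within 1 kb of the upstream end of FKBP5 stood 2 PR regions under vehicle, chr6:35727875-35728451 (−log10 q 23.2) and chr6:35728990-35729184 (6.57). Under P4 the 2 PR regions there were the strongest region and chr6:35728901-35730745. The POLR3A regions there were chr6:35728852-35729120 under vehicle (1.83), and chr6:35728318-35728522 (3.72) and chr6:35728929-35729552 under P4. No region of the 4 lists stood within 1 kb of the lower end of FKBP5.

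Overlapping regions of the 4 lists were joined in chains, so the regions of a joined site need not all overlap each other. FKBP5 had 64 such sites, of which 5 were in all 4 lists. These were chr6:35722311-35723070, chr6:35725108-35728692, chr6:35728852-35730745, chr6:35731626-35734298 and chr6:35764270-35765589. The first 4 lie around the upstream start, and sites that are not in all 4 lists stand between some of them. The fifth lies outside the gene, with −log10 q of 4.50 (PR, vehicle), 2.56 (PR, P4), 6.49 (POLR3A, vehicle) and 3.74 (POLR3A, P4). These are below the list medians for PR (5.75 and 4.87) and above them for POLR3A (3.53 and 3.22). Most sites were in a single list, 25 in the PR P4 list alone, 12 in the POLR3A P4 list alone, 3 in the PR vehicle list alone and 2 in the POLR3A vehicle list alone. Another 8 were in both PR lists and in no POLR3A list. No share of these patterns over the whole lists is given here, and the PR P4 list is the longest of the 4. The counts therefore do not set FKBP5 apart from other places.

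Of the PR regions at FKBP5 under vehicle, 22 of 25 overlapped a P4 region by at least 1 bp (88%, 95% Wilson interval 70.0% to 95.8%), against 75.7% of the whole list. At a reciprocal overlap of at least 50% it was 14 of 25. The 3 others had a −log10 q of at most 3.59. In the other direction, 18 of 50 P4 regions overlapped a vehicle region (36%, interval 24.1% to 49.9%), against 25.8% of the whole list. Intervals cover counting error over regions only. The 32 regions listed under P4 alone were mostly weak, with a median −log10 q of 4.10, whereas the 18 shared ones had a median of 86.1. Among the PR P4 regions of FKBP5 that ranked in the top 10% of the list, 13 of 14 overlapped a vehicle region, against 95.4% of that part of the whole list. The exception was chr6:35730982-35731370, in LOC285847 before the upstream start (fold 13.6, −log10 q 59.0). It lies between PR regions that were present under vehicle.

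At FKBP4, 6 of 7 PR regions under vehicle overlapped a P4 region (85.7%, interval 48.7% to 97.4%) and 6 of 20 under P4 overlapped a vehicle region (30%, interval 14.5% to 51.9%). Its 14 PR regions under P4 alone reached a −log10 q of at most 5.39, and the 6 shared ones had a median of 63.8. The 4 FKBP4 regions that ranked in that top 10% were shared as well. These shares lie close to those of the whole lists.

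The strongest PR site near FKBP4 stood outside the gene, before its lower end and within the long noncoding RNA gene ITFG2-AS1, which spans all of FKBP4. It was chr12:2775284-2775887 under vehicle (fold 23.1, −log10 q 135, rank 976) and chr12:2775283-2775930 under P4 (fold 30.2, −log10 q 219.9, rank 1524). Its P4 summit was 19304 bp from the gene. The next lay just inside the lower end, chr12:2795878-2796287 under vehicle (fold 10.4, −log10 q 37.1) and chr12:2795836-2796704 under P4 (fold 15.0, −log10 q 103). The third was in the middle of the gene, chr12:2799965-2800707 under vehicle (fold 6.47, −log10 q 15.7) and chr12:2799690-2800663 under P4 (fold 15.4, −log10 q 82.8). The 3 strongest sites were the same under both treatments, and their order was the same.

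**Figure D3:**
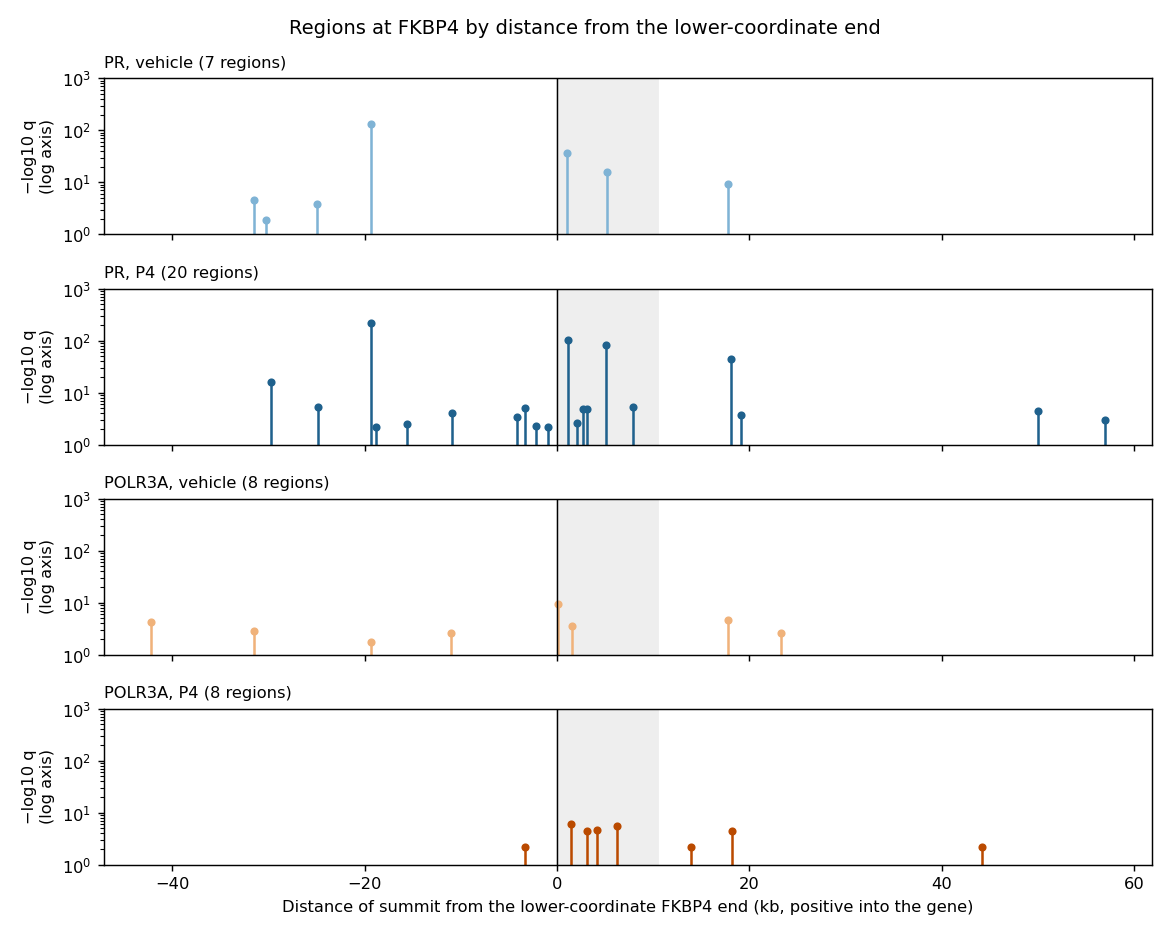
Regions at FKBP4 in the 4 lists. Each stem is a region at its summit, by distance from the lower end of the gene (kb, positive into the gene), with the authors' −log10 q on a log axis. The grey band is the gene. Both PR panels have their tallest stem before the gene, at 135 and 219.9, and no POLR3A stem exceeds 9.42.

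The strongest POLR3A region at FKBP4 ranked below that at FKBP5 in both POLR3A lists. Under vehicle its strongest region, chr12:2794951-2795252, lay over the lower end of the gene (fold 5.55, −log10 q 9.42, rank 2782), and the P4 list had no region there. The next under vehicle were chr12:2812666-2813248 (−log10 q 4.66), over the start of the neighbouring gene ITFG2, and chr12:2752477-2752904 (4.19). Under P4 the strongest were inside FKBP4, chr12:2796106-2796587 (6.11), chr12:2800964-2801293 (5.45) and chr12:2799021-2799251 (4.58). The strongest POLR3A region thus differed in place between the lists at FKBP4, whereas at FKBP5 it stayed. The strongest FKBP4 region under P4 overlapped a weaker vehicle region, chr12:2796413-2796604 (3.58), so that place was in both POLR3A lists. Apart from the POLR3A region over it, the lower end of FKBP4 had within 1 kb the PR region that starts at 2795878 under vehicle. Under P4 it had the one that starts at 2795836 and chr12:2793997-2794194 (2.14). No region stood within 1 kb of the upper end.

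Joined over the 4 lists, FKBP4 had 28 sites, with 2 in all lists. These were chr12:2795836-2796704, just inside the gene, and chr12:2812574-2813353, at the start of ITFG2. The first is a chain in which the PR and the POLR3A region under vehicle did not overlap. At the second, the −log10 q was 9.45 (PR, vehicle), 44.8 (PR, P4), 4.66 (POLR3A, vehicle) and 4.55 (POLR3A, P4). Of the others, 11 were in the PR P4 list alone, 4 in the POLR3A P4 list alone, 3 in the POLR3A vehicle list alone and 3 in both PR lists without POLR3A. Here too, no share of these patterns over the whole lists is given.

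By the 1 bp rule, the share of POLR3A regions that overlapped PR lay above that of the whole list at FKBP5 under vehicle. In the other cases it lay near that of the whole list. At FKBP5, 8 of 11 POLR3A regions under vehicle overlapped a PR region (72.7%, interval 43.4% to 90.3%), against 32.3% of the whole list. Under P4 it was 15 of 27 (55.6%, interval 37.3% to 72.4%), against 50.5%. At FKBP4 it was 3 of 8 (37.5%) and 4 of 8 (50%), against the same 32.3% and 50.5%. The intervals treat regions as independent, which neighbouring regions are not, so they are no test against the whole list. Of the 11 POLR3A regions under vehicle, 7 had their summit within 10 kb of the upstream start. There PR regions covered 37.2% of the bases under vehicle. These shares also rest on the 1 bp rule. At a reciprocal overlap of at least 50%, only 1 PR region of FKBP5 under vehicle overlapped a POLR3A region. The share of the whole list at that setting is not given here. FKBP5 also had more PR regions per 100 kb than most genes, and the part of that in the overlap was not tested.

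Seen from PR, 9 of 25 regions at FKBP5 under vehicle overlapped a POLR3A region (36%, interval 20.2% to 55.5%), against 24.2% of the whole list. Under P4, 14 of 50 did (28%, interval 17.5% to 41.7%), against 20.9%. These counts rest on the 1 bp rule, since they were 1 and 7 at a reciprocal overlap of at least 50%. At a −log10 q of at least 5 they were 4 and 1. Only 6 and 1 POLR3A regions remained at FKBP5 at that threshold, so few overlaps were possible. The shares of the whole list at these 2 settings are not given here. At FKBP4, 3 of 7 (42.9%) and 4 of 20 (20%) did. PR regions without POLR3A included strong ones. The site far inside FKBP5 had a −log10 q of 146 and 214 with no POLR3A region under the same treatment. The FKBP4 site before the gene overlapped a weak POLR3A region under vehicle (1.73) and none under P4. The median −log10 q at FKBP5 was 6.57 for PR regions with POLR3A and 19.1 for those without under vehicle, and 8.68 and 5.39 under P4.

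Between treatments, 6 of 11 POLR3A regions at FKBP5 under vehicle overlapped a P4 region (54.5%), against 42.0% of the whole list. Under P4, 5 of 27 overlapped a vehicle region (18.5%), against 25.8%. At FKBP4 it was 2 of 8 (25%) under each treatment.

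Where the PR lists shared a site, the median distance between summits was smaller at FKBP5 than over the whole list, and larger at FKBP4. From a PR region under P4 to that under vehicle it was 15 bp at FKBP5 (18 regions) and 87 bp at FKBP4 (6 regions). Over the whole list it was 29 bp. The quartiles overlapped, with 5 to 32 bp at FKBP5, 37 to 195.5 bp at FKBP4 and 12 to 72 bp over the whole list. Regions were not matched for strength. From POLR3A to PR under P4 the median was 165 bp at FKBP5 (15 regions) and 129 bp at FKBP4 (4 regions), against 112 bp over the list. Under vehicle it was 194 bp at FKBP5 (8 regions) and 74 bp at FKBP4 (3 regions), against 81 bp. At the strongest FKBP5 site the 4 summits lay between 35726962 and 35726987.

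FKBP5 and FKBP4 were set beside 20 other genes of the receptor chaperone machinery, such as the Hsp90 and Hsp70 genes, STIP1, which links both chaperones, and PTGES3, another Hsp90 co-chaperone. A region within 50 kb was present at 19 of these genes (PR, vehicle), 20 (PR, P4), 19 (POLR3A, vehicle) and 19 (POLR3A, P4). Over all protein-coding genes the shares with a region were 74.6%, 90.5%, 68.7% and 71.9% in the same order, and the difference was not tested. The median density of the 20 genes was 3.72, 10.7, 3.80 and 5.92 regions per 100 kb. For PR under vehicle, 2 of the 20 exceeded FKBP5, PTGES3 with 12.0 and STIP1 with 10.1 per 100 kb, and DNAJA1 had none. Under P4, 5 exceeded FKBP5, led by STIP1 with 28.5 and the Hsp70 gene HSPA1A with 27.3, and the lowest were ST13 with 3.78 and CHORDC1 with 4.08. HSPA1A and its near-identical neighbour HSPA1B share most of their window, so they are not separate cases. For POLR3A under vehicle, 9 exceeded FKBP5 and 6 exceeded FKBP4, with STIP1 at 21.8 and PTGES3 at 20.8. Under P4, 5 exceeded FKBP5 and 8 exceeded FKBP4. Among the chaperone genes FKBP5 thus stood higher for PR than for POLR3A under vehicle, and under P4 as many genes exceeded it in the POLR3A list as in the PR list.

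**Figure D4:**
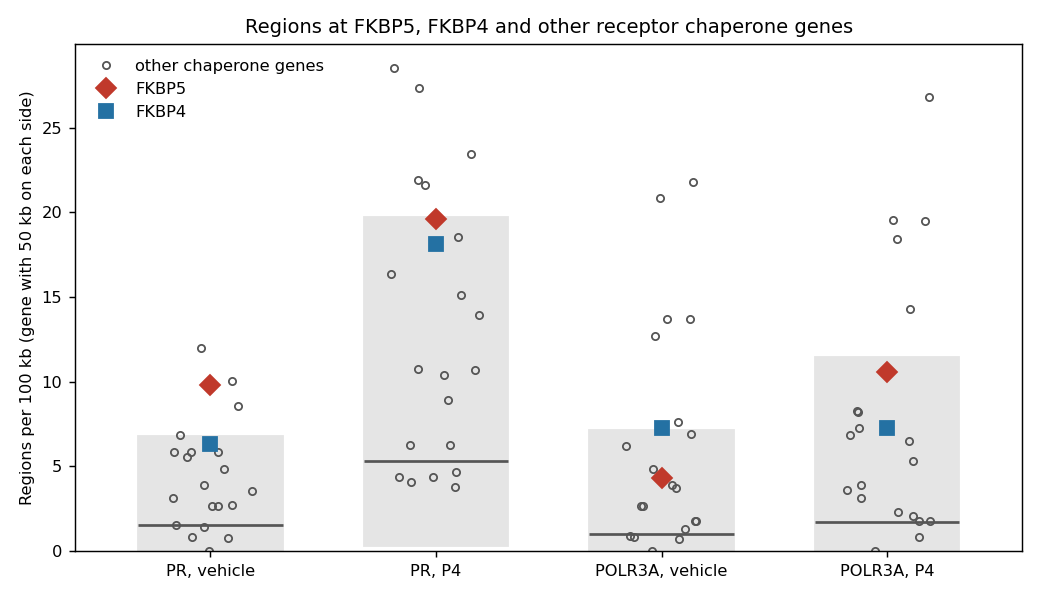
Regions per 100 kb in each list at FKBP5, FKBP4 and 20 other receptor chaperone genes (circles, spread sideways for legibility). The dark line is the median over 19821 protein-coding genes and the grey band runs from their 10th to their 90th percentile. FKBP5 lies above the band for PR under vehicle and inside it in the other lists, and FKBP4, at 7.24, lies just above the band for POLR3A under vehicle and inside it in the others.

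The protein-coding genes with the most similar density in the 4 lists, by distance on the scale log2(regions per 100 kb + 1), were SCIMP, SMTNL1, UHRF1, MAN2B2 and PEA15 for FKBP5 (distances 0.151 to 0.225). For FKBP4 they were INAFM2, CCDC9B, FAM53A, NDUFS7 and GPR146 (0.156 to 0.194). The likeness is over 4 values and is a description of counts, with no bearing on the strength of the regions. On the percentile scale, 3 of the 5 genes for FKBP5 and 4 of the 5 for FKBP4 were again among the closest.

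In the FKBP5 window, the small RNA gene MIR5690 lies inside FKBP5 and no region of the 4 lists overlapped it. The nearest was a PR region under P4, 1265 bp away. Binding went on past the window. Just outside, 3551 bp above the FKBP5 window, the PR vehicle list had a region with a −log10 q of 91.6, and 89 bp below it the PR P4 list had one with 4.23. At the inner edge, the last PR region of FKBP5 under vehicle, chr6:35778492-35778779, had 29.0.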

How the data were processed

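Per the submitters' processing notes, cutadapt, Bowtie2 and MACS2 were used with hg38. Their versions and settings, and how replicates were pooled, are not given in the sources used here. The deposited lists, 1 per antibody and treatment, give each region's position and the position of its summit, a fold enrichment (a ratio) and a −log10 q-value, both computed by the authors. The highest q of any listed region was 0.0497. No counts per replicate were used, so the depth is unknown, and a longer list can reflect depth as well as binding.

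Gene spans came from RefSeq (GRCh38.p14), with 58419 genes kept, and starts and sequences from the RefSeq promoter table. A region belonged to a locus when it reached, by at least 1 bp, the gene or the 50 kb on either side of it, and 2 regions were shared at the same overlap. Counts per 100 kb were ranked among 19821 protein-coding genes. The text names the strongest regions of each list (6 for PR at FKBP5, otherwise 3), those within 1 kb of a gene end, and sites in all 4 lists. Other regions that the text singles out, among them the exception in the top 10% and the regions at the window's edge, were chosen after their values were seen. The members, lists and rules were chosen with earlier results of these data known. Motifs were searched in the promoter windows only, and the GC, CCAAT and TATA boxes were added after the sequences were seen.

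Python 3.11.15, pandas 2.3.3, numpy 2.4.6 and scipy 1.17.1 were used. The overlap code was tested on simulated data, and its counts equalled those of bedtools 2.31.1 in 2 comparisons. Alternatives were a −log10 q of at least 5 or 10, lists cut to equal length, 10 kb on each side, a reciprocal overlap of 50% and rank by fold.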

Additional observations from a re-analysis of the deposited data

How the results depend on the processing

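No paired analysis was possible because each group has 1 list and no value per replicate, and leaving out a replicate could not be done for the same reason. The search for response elements under PR summits, with its whole-region and 1-mismatch settings, was not run, since no genome was used.

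At a −log10 q of at least 5, FKBP5 had 28 PR regions under P4, 10 more than under vehicle, and 6 and 1 POLR3A regions, so that the POLR3A difference turned to -5. PR regions with POLR3A then numbered 4 and 1 at FKBP5, and 0 and 1 at FKBP4. FKBP4 had 4 and 8 PR regions, a difference of 4, and 1 and 2 POLR3A regions, a difference of 1. At a −log10 q of at least 10, FKBP5 had 15 and 19 PR regions, a difference of 4, and 1 and 1 for POLR3A, a difference of 0, with 1 and 1 PR regions with POLR3A. FKBP4 had 3 and 5, a difference of 2, of which 3 and 3 were shared, with 0 and 0 for POLR3A and 0 and 0 PR regions with POLR3A.

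With lists cut to equal length, FKBP5 had 22 PR regions under P4, so the P4-minus-vehicle difference in counts turned to -3. A wide P4 region that overlapped more than 1 vehicle region enters that count as 1. The POLR3A difference was 8. FKBP4 had 5 PR regions under P4, so the difference turned to -2, and 5 POLR3A regions, a difference of -3. PR P4 regions with POLR3A numbered 6 at FKBP5 and 2 at FKBP4. The percent of genes with fewer regions under P4 became 97.2 (PR) and 91.1 (POLR3A) for FKBP5, and 83.1 and 82.9 for FKBP4.

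With 10 kb on each side, the P4-minus-vehicle differences at FKBP5 were 13 (PR) and 10 (POLR3A). FKBP4 had 3 and 12 PR regions and 3 POLR3A regions under vehicle, with a POLR3A difference of 4, 3 and 3 shared PR regions, and 1 PR region with POLR3A under vehicle. The percent of genes with fewer regions was 94.6 and 86.0 (PR) and 82.6 and 86.9 (POLR3A) for FKBP5, and 92.4 and 97.7 (PR) and 90.9 and 96.0 (POLR3A) for FKBP4.

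At a reciprocal overlap of at least 50%, 14 PR vehicle regions of FKBP5 were shared, and 1 and 7 PR regions overlapped POLR3A. By fold, the strongest FKBP5 region stood in the top 0.0323% (PR, P4), 1.42% and 1.28% (POLR3A) of its list, and that of FKBP4 in the top 2.76% and 1.68% (PR) and 4.48% and 7.71% (POLR3A). With 5 kb around each start, a setting added after the data had been seen, 178 and 10 starts had more POLR3A bases than the upstream FKBP5 start. With lists cut to equal length, also added then, 88 and 20 had more POLR3A bases and 0 had more PR bases in either list. The cause of these shifts was not tested, other than that stricter lists hold fewer regions.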
